A study of Mus musculus with 4 samples.

Results

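The collagen genes were taken as every row of the count tables whose whole symbol has the form Col, a number, the letter a and a number, which gave 44 of the 32285 genes listed, and all 44 were found in GENCODE M21. They were followed in single-cell RNA sequencing (scRNA-seq) of tumors grown from MC38, a mouse colon carcinoma line, in C57BL/6 mice. The WT cells carried unedited Rac1, a small GTPase, and the A159V cells carried the A159V substitution at both endogenous Rac1 alleles. The edited cells were taken from 1 clone wherever the methods name no other, so the mutation and the clone cannot be told apart here. Cells were injected under the skin in a basement membrane gel, and mice were given, every few days, either a PD1-blocking antibody (anti-PD1; PD1 is an inhibitory receptor of T cells) or its isotype control (IgG). The mice were young animals of either sex, and all 4 groups (WT and A159V tumors, each with IgG or anti-PD1) shared the host strain, so fibroblasts, vessels and immune cells are of the host while tumor cells are of the injected line. The design asks how tumors of the 2 genotypes and their surroundings differ with and without the antibody.

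Each group was 1 library of counts of unique molecular identifiers (UMIs), and the number of mice behind a library was not stated. With 1 library per group there was no replicate and no test, and the 95% intervals given are exact Poisson (levels), exact binomial (shares) or approximate log-scale Poisson (ratios) intervals that cover counting error only. Values given for 4 libraries follow the order IgG then anti-PD1 of WT, IgG then anti-PD1 of A159V, and values given for 3 leave out the anti-PD1 library of WT. The analyzed libraries held between 6466 and 8248 cells. CD45+ and CD45- cells had been separated and remixed before loading, so the shares of tumor, stromal and immune cells were set in part by the mixing. The WT anti-PD1 library stood apart: it held 18 tumor-like cells against 2029, 2787 and 2104 in the others, and 1587 fibroblast-like cells against 137, 182 and 162. It alone held enough endothelial-like (183) and pericyte-like (38) cells to describe. Tumor-like cells expressed Rhox5, Prl2c2 and Prl2c3, but the epithelial genes on the same marker list (Krt7, Krt8, Krt18, Krt19 and Epcam) were near or at 0, so the label rests on 3 of its 8 markers. Between 13 and 22 cell barcodes were shared by each pair of libraries.

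Collagens are extracellular matrix proteins built from 3 chains wound into a triple helix. Fibrillar collagens (types I, III, V and XI) form the tensile fibers of connective tissue and come chiefly from fibroblasts. Type IV is the network collagen of basement membranes, type VI forms beaded filaments close to cells, and the remaining types decorate fibrils, anchor membranes or carry a transmembrane segment.

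Collagen RNA was found mainly in fibroblast-like cells. Summed over the 44 genes, collagen stood at 61916 CPM (UMIs scaled to the usual common total, here per cell class and library) in WT IgG, with an interval of 61580 to 62253. The other 3 libraries had 90945 CPM (90827 to 91064), 60150 CPM (59790 to 60512) and 78909 CPM (78514 to 79305). In tumor-like cells the sum was 1085 CPM in WT IgG (1077 to 1093), against 401 CPM (397 to 405) and 458 CPM (454 to 463) in the IgG and anti-PD1 libraries of A159V, and the 18 tumor-like cells of WT anti-PD1 gave 881 CPM (805 to 962). In immune cells it was 96.0, 791, 74.8 and 113 CPM. The intervals of these 3 classes did not overlap in any library, although those of tumor-like and immune cells nearly met in WT anti-PD1. Fibroblast-like cells held 64.5%, 98.4%, 74.7% and 77.7% of all collagen UMIs of their libraries, and tumor-like cells 34.7%, 0.0217%, 24.7% and 21.3%.

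Among the 44 genes, 25 reached 50 CPM in a tumor-like, fibroblast-like, endothelial-like or pericyte-like profile, and 12 stayed under 10 CPM in all of them (Col2a1, Col4a3, Col9a1, Col9a2, Col9a3, Col10a1, Col11a2, Col17a1, Col19a1, Col20a1, Col22a1 and Col26a1), most of which are known from cartilage, epithelia or nerve. Of the genes at 10 CPM or more in either class, 25 of 28, 24 of 25 and 25 of 27 in the 3 libraries with enough cells of both were higher in fibroblast-like than in tumor-like cells. The exceptions were Col7a1, the anchoring fibril collagen, in all 3 of these libraries, Col4a5 in WT IgG and A159V anti-PD1, and Col4a6 in WT IgG. The same count was not made over all genes. Levels are counts of tagged 3′ ends and were not divided by gene length, so a level is compared here only for the same gene between cells, and shares of collagen UMIs are shares of counted molecules.

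**Figure D1:**
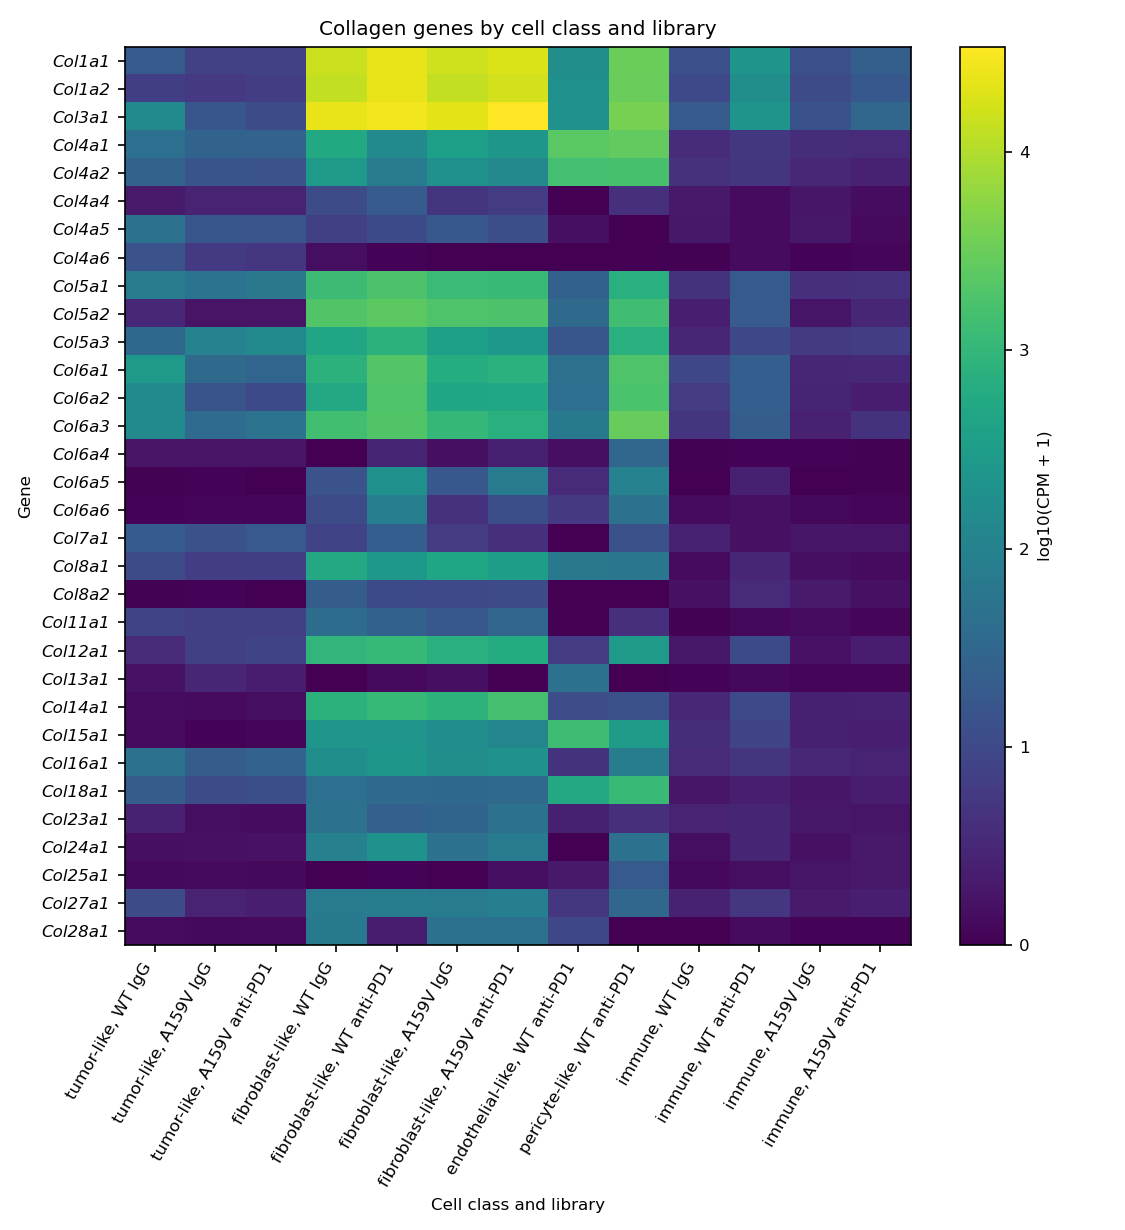
Level of each collagen gene that reached 10 CPM in any profile of at least 30 cells, as log10(CPM + 1) on a color scale, with genes in rows and cell class and library in columns. Col1a1, Col1a2 and Col3a1 are brightest in fibroblast-like columns, whereas Col4a1, Col4a2, Col15a1 and Col18a1 are bright in the endothelial-like column.

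The main fibrillar chains set the fibroblast-like profile. Col1a1, the alpha 1 chain of type I collagen, stood at 14523, 24066, 15798 and 19533 CPM in the 4 libraries. Col1a2, its partner chain, stood at 13113, 24040, 13004 and 16423 CPM. Col3a1, the type III chain, stood at 23742, 27872, 22429 and 33939 CPM. Together they made up 83.0%, 83.5%, 85.2% and 88.6% of fibroblast-like collagen UMIs. Both libraries from anti-PD1 treated mice lay above both IgG libraries for each of these chains. The UMI ratio of Col1a1 to Col1a2, which form a heterotrimer of unequal chain number, was 1.11, 1.001, 1.21 and 1.19 in the 4 fibroblast-like profiles, whereas that of Col1a1 to Col3a1 ranged from 0.576 in A159V anti-PD1 to 0.863 in WT anti-PD1.

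The other collagens that passed 50 CPM were also mostly fibroblast genes. In fibroblast-like cells of the 4 libraries Col5a1 and Col5a2, the chains that set fibril diameter, stood at 1278, 1873, 1216 and 1153 CPM and at 1992, 2491, 1937 and 1870.5 CPM. The ratio of Col5a1 to Col5a2 UMIs was 0.642, 0.752, 0.628 and 0.617 there, against 32.9, 72.8 and 82.6 in tumor-like cells. Tumor-like cells thus held few counted Col5a2 molecules beside those of Col5a1. Among fibril-associated collagens, Col12a1 stood at 964, 1087, 739 and 617 CPM, Col14a1 at 810.0, 1075, 861 and 1568 CPM and Col16a1 at 182, 245, 173 and 193 CPM. Col12a1 stood at no more than 7.02 CPM in the 3 tumor-like profiles, whereas Col16a1 reached 48.5, 20.8 and 25.8 CPM there. Col15a1 stood at 232, 231, 166 and 118 CPM and Col18a1 at 43.7, 34.7, 30.96 and 36.03 CPM in fibroblast-like cells, both well under their endothelial-like levels. Col23a1, a transmembrane collagen, stood at 48.5, 23.8, 27.6 and 50.96 CPM, Col24a1 at 93.2, 204, 50.7 and 71.5 CPM and Col27a1 at 73.7, 83.4, 71.5 and 89.05 CPM.

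In tumor-like cells the chains of types I and III were low. Col1a1 stood at 17.8, 6.93 and 6.51 CPM, and immune cells of the same libraries carried 11.8, 11.5 and 22.2 CPM. Counted per cell, tumor-like cells held 0.568, 0.220 and 0.283 Col1a1 UMIs and immune cells 0.0419, 0.0291 and 0.0697 beside median depths of 29636, 30761 and 42344 UMIs in tumor-like and 3045, 2058 and 2664.5 in immune cells. Col1a2 in tumor-like cells was below the immune CPM in each of these 3 libraries (5.85 against 9.20, 4.55 against 10.0 and 5.53 against 16.96 CPM). In CPM, only the WT IgG value of Col1a1 was above that of immune cells, while per cell tumor-like cells held more UMIs of it throughout. Col3a1 differed: in WT IgG it stood at 138.7 CPM in tumor-like cells against 18.3 in immune cells, whereas the A159V values of 15.5 and 10.5 CPM lay close to or under the immune values of 13.0 and 29.9.

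Type VI collagen was the largest group in WT tumor-like cells. Col6a1, Col6a2 and Col6a3, the chains of the common type VI heterotrimer, took 50.9%, 21.7% and 20.1% of tumor-like collagen UMIs. Col6a1 stood at 271 CPM in WT IgG and at 35.3 and 29.6 CPM in A159V. Col6a2 stood at 140.2, 13.8 and 9.28 CPM. Col6a3 stood at 141.3, 37.8 and 53.1 CPM. For all 3 chains WT IgG was the highest library. The Col6a3 to Col6a1 ratio in tumor-like cells was 0.521, 1.07 and 1.79, so the chains did not differ between libraries by a common factor.

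The comparison of A159V IgG with WT IgG tumor-like cells asks how the edited line differs without the antibody. A gene entered it if either library had 10 CPM or more of it, and was counted when log2 of (CPM + 1) differed by 1 or more, a 2-fold change. Of the 44 collagens 16 entered, of which 1 was higher and 10 were lower in A159V IgG, against 1.8% higher and 4.2% lower of all 8905 genes that entered. The median log2 ratio of the 16 was -1.21, beside -0.02 for all genes. Summed collagen was lower by a log2 ratio of -1.43 (-1.45 to -1.42).

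The 10 lower genes were Col6a2 (-3.26, -3.34 to -3.18), Col3a1 (-3.08, -3.16 to -3.00), Col6a1 (-2.90, -2.96 to -2.85), Col27a1 (-1.996, -2.17 to -1.82), Col6a3 (-1.88, -1.93 to -1.82), Col4a5 (-1.67, -1.76 to -1.58), Col4a6 (-1.30, -1.45 to -1.16), Col1a1 (-1.25, -1.38 to -1.12), Col16a1 (-1.18, -1.26 to -1.10) and Col18a1 (-1.01, -1.13 to -0.90), as log2 ratios of A159V IgG to WT IgG. Col27a1 is a fibrillar collagen of cartilage, Col4a5 and Col4a6 are minor type IV chains encoded side by side, Col16a1 is a fibril-associated collagen, and Col18a1 gives rise to endostatin. Col27a1 stood at 10.1 CPM in WT IgG and 1.78 in A159V IgG, and Col4a5 at 50.004 and 15.005 CPM. The counting intervals exclude 0 for all 10. In A159V IgG, 3 of them lay near the level of immune cells of the same library: Col1a1 at 6.93 CPM against 11.5, Col3a1 at 15.5 against 12.996 and Col27a1 at 1.78 against 1.11. In WT IgG Col1a1 stood at 17.8 CPM against 11.8 in immune cells. The Col1a1 ratio became 0.09 when cluster 11, described next, was left out.

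Col5a3, a type V chain that joins the Col5a1 and Col5a2 fibril regulators in a few tissues, was the 1 higher gene. It stood at 33.0 CPM in WT IgG and at 100.7 and 139.3 CPM in A159V, a log2 ratio of 1.58 (1.51 to 1.65) between the IgG libraries, and made up 3.04%, 25.1% and 30.4% of tumor-like collagen UMIs. Immune cells of these libraries carried 2.09, 4.96 and 5.64 CPM. In fibroblast-like cells of the same libraries Col5a3 went the other way, with 464, 364 and 265 CPM, so their order was the reverse of that in tumor-like cells. Fibroblast-like cells of WT anti-PD1, left out of this order, held 12.8 Col5a3 UMIs per cell, against 7.13 in WT IgG. The median depths were 14101 and 14485 UMIs. Its partner Col5a1 stood at 70.3, 51.1 and 61.3 CPM in tumor-like cells, and Col5a2 at 2.14, 0.702 and 0.743.

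The tumor-like class consisted of 3 clusters, and different clusters held most of it in the 2 genotypes. Cluster 11, led by Tafa1, Csmd3 and Sema3a, held 45.9% of tumor-like cells in WT IgG (43.7% to 48.1%) and 3.48% (2.83% to 4.23%) and 3.09% (2.39% to 3.92%) in the A159V libraries, and clusters 0 and 2 held the rest. Collagen genes and the genes of collagen processing had been left out when cells were clustered. The label of cluster 11 is weaker than that of the class. Its mean standardized marker level was 0.69 on the tumor list, with 3 markers detected. It was higher on the keratinocyte list (2.35, 1 detected) and the adipocyte list (0.80, 0 detected), and 0 of its leading genes were tumor markers. Cluster 11 carried 69.6%, 7.39% and 4.87% of the tumor-like collagen UMIs. It was also the cluster with most fibroblast marker RNA. The 10 fibroblast markers summed to 492 CPM there in WT IgG and 451 in A159V IgG, of which Dcn gave 415 and 372, against 203 and 134 in cluster 0 and 106 and 103 in cluster 2, while fibroblast-like cells had 8859 and 8616. All 10 were detected in cluster 11 of WT IgG, and Mfap4, Fbln1 and Sfrp2 were at 0 in that of A159V IgG. The part of this RNA in the collagen values was not tested.

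Within a cluster the difference in summed collagen was smaller. The sum stood at 621 CPM in WT IgG and 509 in A159V IgG in cluster 0 (log2 ratio -0.29), at 304 and 283 in cluster 2 (-0.10) and at 2005 and 1623 in cluster 11 (-0.30). A collagen entered here by its level in the cluster. In cluster 0, of 13 that entered 1 was higher and 3 were lower by 2-fold, against 2.21% and 1.33% of 8769 genes. In cluster 2, of 12 that entered 1 was higher and 4 lower, against 1.95% and 1.12% of 8470 genes. In cluster 11, of 17 that entered 2 were higher and 0 lower, against 3.26% and 1.54% of 9489 genes. Col6a1 and Col6a2 kept a lower level in clusters 0 and 2: Col6a1 stood at 144 CPM against 52.8 in cluster 0 and at 42.1 against 13.5 in cluster 2, with WT IgG first, and Col6a2 at 65.0 against 21.5 and at 17.5 against 3.75. In cluster 11 they stood at 530 against 323 and at 288 against 151 CPM. Col3a1 was lower in clusters 0 and 2 (39.7 against 15.3 and 18.3 against 6.73 CPM), and stood at 313 against 293.5 CPM in cluster 11. Without cluster 11, an alternative chosen after seeing the data, summed collagen had a log2 ratio of -0.48, and of 13 that entered 1 was higher and 6 were lower, against 1.87% and 1.63% of 8648 genes. At a finer resolution (2), a tumor-like cluster held 1451 WT IgG and 228 A159V IgG cells, against 932 and 97 in cluster 11. The make-up of clusters 0 and 2 may thus still differ between the libraries. The part of this in the values within clusters was not tested.

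Col5a3 was the collagen that was 2-fold higher in A159V IgG in all 3 clusters, with 24.0 against 131 CPM in cluster 0, 13.9 against 78.4 in cluster 2 and 52.8 against 122 in cluster 11, WT IgG first. These are log2 ratios of 2.40, 2.41 and 1.20, of which those in clusters 0 and 2 are above the 1.58 of the whole class. Col5a1 differed in sign: it was lower in A159V IgG over all tumor-like cells (-0.45, -0.51 to -0.39) but higher within each cluster, with log2 ratios of 0.43, 0.43 and 0.49. Col1a1 was higher in A159V IgG in cluster 0 (0.60) and lower in clusters 2 and 11 (-0.45 and -0.47).

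**Figure D2:**
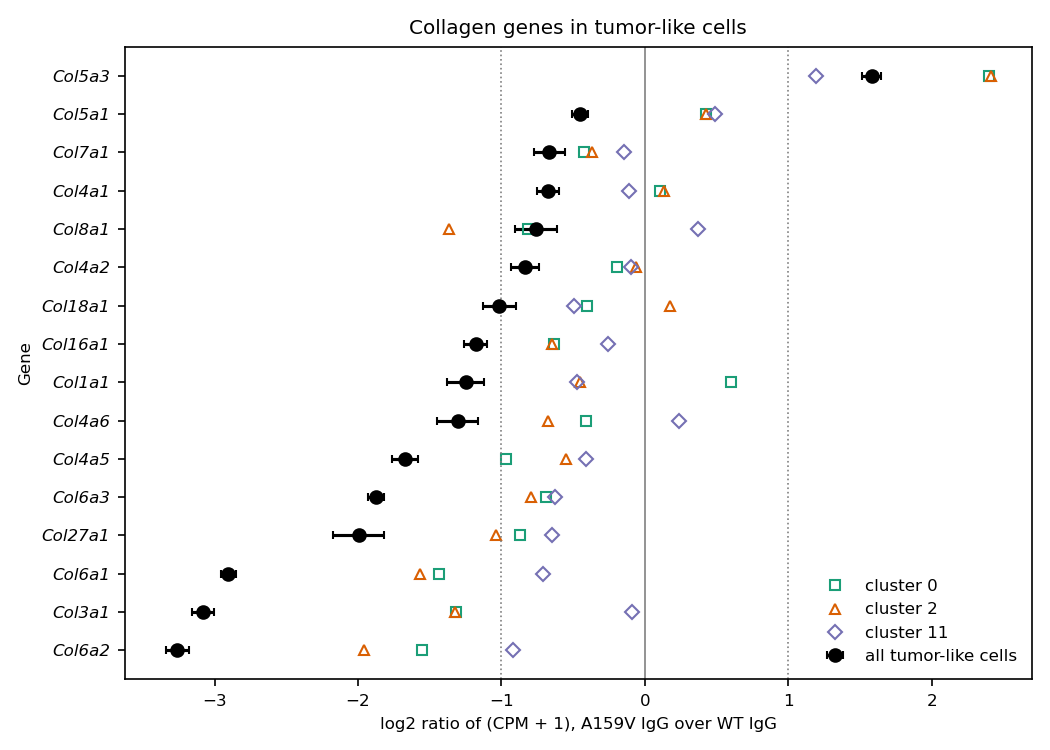
Log2 ratio of (CPM + 1) between A159V IgG and WT IgG for the 16 collagen genes compared in tumor-like cells, with genes on the y axis. Black points are all tumor-like cells with 95% counting intervals, open symbols are the 3 clusters without intervals, and dotted lines mark 2-fold; Col5a3 lies right of 1 in every cluster, and most other genes lie closer to 0 within clusters than over the whole class.

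Col5a3, the gene with the highest ratio in tumor-like cells, Col6a2, the one with the lowest, and Col6a1, its type VI partner, are shown by their promoters. Col3a1, whose ratio lies between those of Col6a2 and Col6a1, is not shown. Windows run from 250 bases before to 50 after the RefSeq start (GRCm38.p6), and 35 of the 44 collagens had a window. The 3 motifs CCAAT and GGGCGG, both in capitals where found, and TATAAA were searched on both strands. Col5a3 (chr9:20815018-20815317, minus strand) held 1 CCAAT and 3 GGGCGG matches, Col6a2 (chr10:76623581-76623880, minus strand) held 1 GGGCGG match, and Col6a1 (chr10:76725995-76726294, minus strand) held neither.
Col5a3: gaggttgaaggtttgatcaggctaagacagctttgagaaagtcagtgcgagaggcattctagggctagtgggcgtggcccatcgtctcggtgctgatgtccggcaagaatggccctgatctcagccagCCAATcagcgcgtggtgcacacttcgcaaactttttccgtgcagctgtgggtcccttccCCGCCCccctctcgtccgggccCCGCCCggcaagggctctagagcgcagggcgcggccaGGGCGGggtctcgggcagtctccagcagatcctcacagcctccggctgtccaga
Col6a1: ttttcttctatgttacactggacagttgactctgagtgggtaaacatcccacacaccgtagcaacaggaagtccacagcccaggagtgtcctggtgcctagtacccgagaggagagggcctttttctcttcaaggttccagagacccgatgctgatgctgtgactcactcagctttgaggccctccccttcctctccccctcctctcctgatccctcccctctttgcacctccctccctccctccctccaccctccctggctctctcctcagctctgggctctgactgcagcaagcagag
Col6a2: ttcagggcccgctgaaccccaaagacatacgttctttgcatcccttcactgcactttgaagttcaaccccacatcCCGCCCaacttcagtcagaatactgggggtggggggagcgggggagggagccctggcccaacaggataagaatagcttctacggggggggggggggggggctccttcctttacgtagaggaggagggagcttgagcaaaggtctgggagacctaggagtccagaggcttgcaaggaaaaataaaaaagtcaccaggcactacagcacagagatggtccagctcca
CCAAT was found in 12 of the 35 collagen windows (34.3%) and in 37.4% of all 32851 windows, GGGCGG in 22 of 35 (62.9%) and in 35.7%, and TATAAA in 5 of 35 (14.3%) and in 13.6%. TATAAA was not found in the windows of Col5a3, Col6a1 and Col6a2. A match describes the letters of the window and is not evidence of binding. Col6a1 and Col6a2 lie on the same strand of chromosome 10, 85161 bases apart.

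The antibody comparison was possible for A159V tumor-like cells only, since WT anti-PD1 had too few. Of the 12 collagens that entered, 0 were 2-fold higher and 0 lower with anti-PD1 than with IgG, against 0.151% and 0.0349% of 8604 genes. Summed collagen was higher by a log2 ratio of 0.19 (0.17 to 0.21). The largest differences were Col3a1 (-0.53, -0.64 to -0.42) and Col6a2 (-0.52, -0.64 to -0.41) on the lower side and Col6a3 (0.48, 0.42 to 0.54) and Col7a1 (0.47, 0.37 to 0.57) on the higher side. Within cluster 11 (97 cells with IgG and 65 with anti-PD1), 0 of the 17 collagens that entered by their level there were higher and 7 were lower, against 1.42% and 2.21% of 9535 genes. Summed collagen had a log2 ratio of -0.62 in cluster 11, against -0.02 in cluster 0 and 0.25 in cluster 2.

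The genotype comparison without antibody was also made in fibroblast-like cells. Of the 26 collagens compared between A159V IgG and WT IgG, 1 was higher (1.81% of 9070 genes were) and 3 were lower (1.41%) by 2-fold, and summed collagen had a log2 ratio of -0.04 (-0.05 to -0.03). The median log2 ratio of the 26 was -0.35, beside 0.02 for all genes. Col4a5 was the higher one, at 6.18 CPM in WT IgG and 16.3 in A159V IgG (log2 ratio 1.27, 0.43 to 2.11). The lower ones were Col4a4, Col8a2 and Col11a1, at 10.5 against 3.94, 20.4 against 9.01 and 38.5 against 16.3 CPM. All 4 were low genes with wide intervals. Tumor marker RNA was higher in the same A159V IgG cells: 5 of the 8 tumor markers were detected in each library and summed to 70.9 CPM there against 14.7 in WT IgG, with Krt8, Krt18 and Epcam at 0 in both, and its part in the Col4a5 value was not tested. When cells were chosen by fibroblast markers in place of clusters, Col4a5 was lower, at -1.14, and summed collagen was higher, at 0.64.

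With the antibody the WT fibroblast-like cells differed in several families. Of 27 collagens compared between WT anti-PD1 and WT IgG, 6 were higher and 5 lower by 2-fold, against 4.43% and 5.26% of 9194 genes, and summed collagen was higher by a log2 ratio of 0.55 (0.55 to 0.56). The median log2 ratio of the 27 was 0.41, beside 0.09 for all genes. The higher genes were mostly of type VI: Col6a5 stood at 13.3 CPM in WT IgG and 185 in WT anti-PD1, a log2 ratio of 3.699 (3.1998 to 4.197). Col6a6, a related long chain of the same locus, stood at 9.98 and 89.9 CPM (3.05, 2.49 to 3.61). Col6a2 stood at 548.5 and 1893 CPM (1.79, 1.70 to 1.87) and Col6a1 at 824 and 2059 (1.32, 1.25 to 1.39). The type VI chains did not differ equally, since Col6a3 stood at 1425 and 1999 CPM (0.49, 0.44 to 0.54), and its ratio to Col6a1 was 1.73 in WT IgG and 0.971 in WT anti-PD1. Col7a1 (7.13 and 21.7 CPM) and Col24a1, a fibrillar collagen of bone (93.2 and 203.5 CPM), completed the higher genes.

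The lower genes were led by Col28a1, a type VI-like collagen of peripheral nerve, at 66.1 CPM in WT IgG and 1.25 in WT anti-PD1 (log2 ratio -4.90, -5.27 to -4.53). Col4a1 stood at 576 and 148 CPM (-1.95, -2.04 to -1.86) and Col4a2 at 268 and 75.5 (-1.81, -1.95 to -1.68). Col8a1, a short-chain network collagen of vessels, stood at 537 and 255 CPM (-1.07, -1.16 to -0.98), and its partner Col8a2 at 20.4 and 9.58 (-1.02, -1.46 to -0.58). With cells chosen by fibroblast markers in place of clusters, of 28 collagens that entered 15 were higher and 5 lower, against 7.36% and 13.1% of 9723 genes. With this choice summed collagen had a log2 ratio of 1.35, and Col8a2 had 0.02. Over the 9 alternative settings for this comparison, Col8a1 stayed past 2-fold in 8, with a smallest difference of -0.17. Col7a1 stayed past it in 7, with a lowest value of 0.59, and Col8a2 in 5. The other named genes of this comparison stayed past 2-fold in all 9. The 10 endothelial markers summed to 77.95 CPM in WT IgG fibroblast-like cells, with Cldn5, Emcn, Esam and Tie1 at 0. They summed to 129 CPM in WT anti-PD1, with all 10 detected. Tek alone gave 35.2 and 53.6 CPM of these sums, and it stood at 56.8 and 93.0 CPM in cluster 10, described below. The profiles held 2103798 and 24840424 UMIs, so the numbers of markers detected were not compared at equal depth. The 7 pericyte markers summed to 24.2 and 19.4 CPM. The part of endothelial or pericyte RNA in the type IV values was not tested.

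The same antibody comparison in A159V gave fewer genes past the limit. Of 26 collagens, 2 were higher and 0 lower by 2-fold with anti-PD1 than with IgG, against 2.79% and 4.7% of 9199 genes, and summed collagen was higher by a log2 ratio of 0.39 (0.38 to 0.40). The median log2 ratio of the 26 was 0.19, beside -0.01 for all genes. The 2 genes were again Col6a5, at 15.8 CPM with IgG and 70.5 with anti-PD1 (2.09, 1.54 to 2.65), and Col6a6, at 3.38 and 11.3 (1.49, 0.44 to 2.54). Col28a1 stood at 47.3 and 47.4 CPM. Col4a1 was at 361 and 245 CPM (-0.56, -0.73 to -0.39) and Col4a2 at 184 and 137 (-0.42, -0.66 to -0.19). Col14a1, a fibril-associated collagen, was at 861 and 1568 CPM (0.86, 0.77 to 0.95). The difference between the 2 genotypes in their antibody ratios could not be tested with 1 library each. The A159V and WT antibody comparisons have separate controls, whereas the WT antibody and the genotype comparison share WT IgG. Of the 25 collagens compared in both genotypes, 15 had the same sign and 10 the opposite, and 0 passed 2-fold in opposite directions. Signs were not counted over all genes, so these counts have no background beside them.

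**Figure D3:**
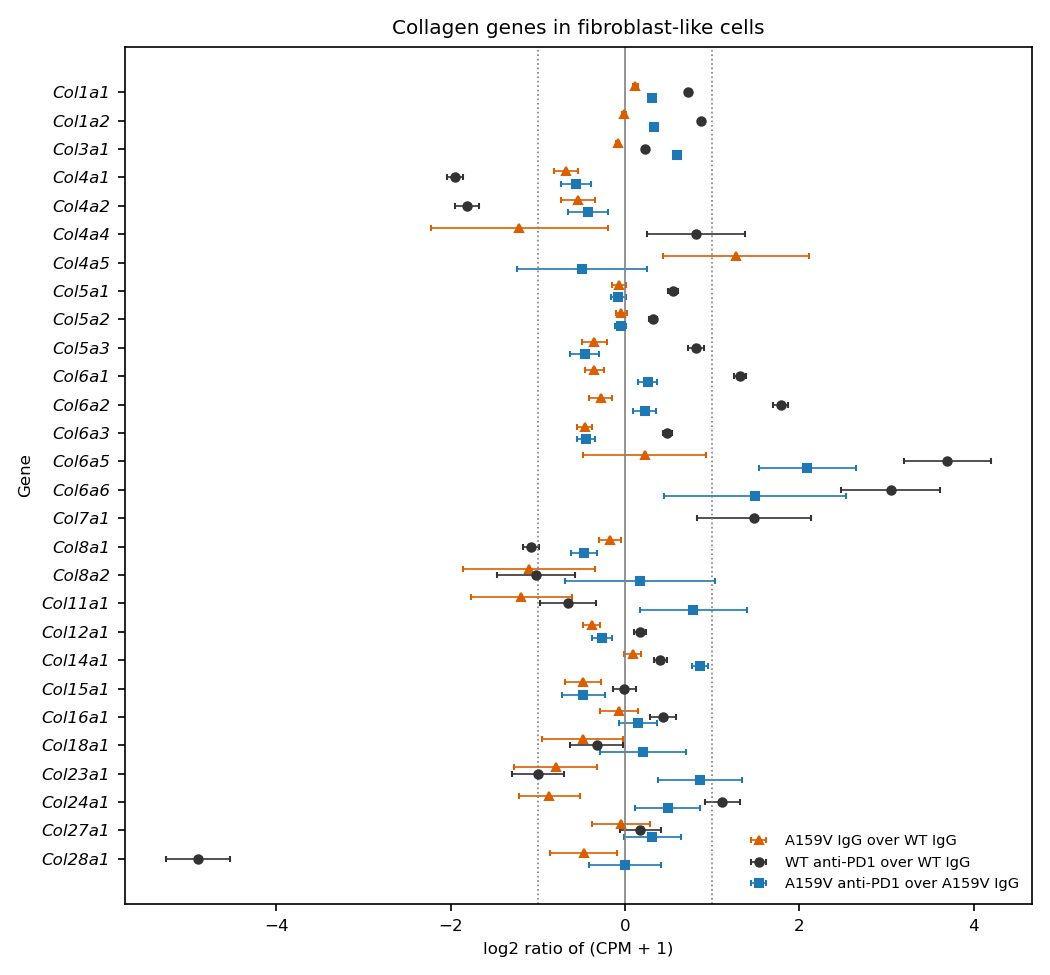
Log2 ratio of (CPM + 1) in fibroblast-like cells for the collagen genes compared, with genes on the y axis and 1 symbol per comparison. Bars are 95% counting intervals and dotted lines mark 2-fold; Col6a5 and Col6a6 lie right of 1 in both antibody comparisons, while Col28a1 lies far left in the WT antibody comparison only.

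Fibroblast-like cells formed 2 clusters, and both were present in every library. Cluster 10, led by Pi16, Clec3b and Dpt, held 66.4%, 55.6%, 62.1% and 84.6% of them in the 4 libraries, and cluster 16, led by Tnc, Acta2 and Postn, held the rest. They differed in collagens. In WT IgG, Col8a1 stood at 104 CPM in cluster 10 and 1214 in cluster 16, Col11a1 at 0.779 and 97.6, and Col12a1, a fibril-associated collagen, at 574 and 1575. Col28a1 went the other way, with 104 and 6.10 CPM, and so did Col4a1, with 719 and 351. These cluster values are a description, as the clusters were formed from the same cells.

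Within cluster 10 the WT antibody values kept their direction for type VI and type IV. Col6a5 stood at 21.02 CPM in WT IgG and 291 in WT anti-PD1, Col6a6 at 16.4 and 147, Col6a1 at 620 and 2069 and Col6a2 at 410 and 1948. Col4a1 stood at 719 and 229 CPM, Col4a2 at 322 and 111, and Col28a1 at 104 and 1.81. Col8a1, in contrast, stood at 104 and 102 CPM in cluster 10 and at 1214 and 430 in cluster 16, so its lower level was found in cluster 16. Col1a1 stood at 10441 and 23264 CPM in cluster 10 and at 20920.5 and 24986 in cluster 16. Cluster 16 had 46 cells in WT IgG, under the 50 asked for, so no ratios were taken there. At a finer resolution (2), a fibroblast-like cluster held 5 WT IgG and 694 WT anti-PD1 cells. Another held 86 and 185, and the last held 46 and 708. The make-up of cluster 10 may thus differ between WT IgG and WT anti-PD1. The part of this in the values of cluster 10 was not tested.

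Col4a1 and Col4a2, which together form the common type IV trimer, kept a narrow ratio to each other across non-immune cells. They were highest in endothelial-like cells (2327 and 1494 CPM) and pericyte-like cells (2788 and 1617 CPM) of WT anti-PD1. The UMI ratio of Col4a1 to Col4a2 lay between 1.56 and 2.15 in the 9 profiles of tumor-like, fibroblast-like, endothelial-like and pericyte-like cells, while the level of Col4a1 in the same profiles ranged from 25.5 to 2788 CPM. The genes lie head to head on chromosome 8 and their annotated ends overlap. The 2 promoter windows share 78 bases (chr8:11312777-11312854), shown in capitals on each strand because they are the stretch from which both genes are read.
Col4a1: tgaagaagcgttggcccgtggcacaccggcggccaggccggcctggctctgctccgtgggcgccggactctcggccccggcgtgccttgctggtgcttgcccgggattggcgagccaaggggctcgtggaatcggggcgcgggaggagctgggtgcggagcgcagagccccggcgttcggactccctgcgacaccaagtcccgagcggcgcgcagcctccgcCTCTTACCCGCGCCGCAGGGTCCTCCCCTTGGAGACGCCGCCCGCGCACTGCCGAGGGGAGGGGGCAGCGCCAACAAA
Col4a2: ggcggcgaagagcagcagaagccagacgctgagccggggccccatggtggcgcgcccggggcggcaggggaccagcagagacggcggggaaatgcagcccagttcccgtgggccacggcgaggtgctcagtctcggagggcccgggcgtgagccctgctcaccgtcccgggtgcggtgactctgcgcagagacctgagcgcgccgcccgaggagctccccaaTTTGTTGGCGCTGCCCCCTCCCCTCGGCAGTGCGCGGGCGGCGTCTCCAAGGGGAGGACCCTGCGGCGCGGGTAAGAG
The Col4a1 window is chr8:11312777-11313076 (minus strand) and that of Col4a2 is chr8:11312555-11312854 (plus strand). Both windows hold CCAAT and GGGCGG.

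Endothelial-like cells had a collagen profile of their own within the WT anti-PD1 library. Col4a1 and Col4a2 took 57.5% of their collagen UMIs, against 0.246% in fibroblast-like cells of the same library. Col15a1, a basement membrane zone collagen, stood at 1333 CPM against 231 in fibroblast-like cells, and Col18a1 at 536 against 34.7. Col13a1, a transmembrane collagen, stood at 50.6 CPM and at 0.322. Fibrillar chains were low but present, with Col1a1 at 172, Col1a2 at 189 and Col3a1 at 191 CPM, beside 222, 175 and 219 CPM in immune cells of this library. Pericyte-like cells carried both sets, with Col6a3 at 2984 and Col18a1 at 1187 CPM beside Col1a1 at 3225, but they were 38 cells and 1 of them held 23.9% of the collagen UMIs.

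Genes that process collagen or bind it were followed as a list of 39, beside the same shares of all genes as above. Of the list (19 hydroxylases and chaperones, 6 propeptide-processing genes, 5 cross-linking enzymes and 9 receptors), 25 entered the tumor-like genotype comparison, where 0 were higher and 2 lower, against 1.8% and 4.2% of all genes: Loxl3, a lysyl oxidase, at 10.1 and 3.82 CPM, and Mrc2, a collagen uptake receptor, at 20.5 and 6.82 CPM in WT IgG and A159V IgG. In fibroblast-like cells 33 entered the genotype comparison with 0 past 2-fold, against 1.81% of all genes higher and 1.41% lower. In WT fibroblast-like cells with the antibody, of 35 entered 1 was higher (Adamts14, a procollagen N-proteinase, 27.1 and 71.1 CPM) and 1 lower (Ppib, a prolyl isomerase, 1119 and 448 CPM), against 4.43% and 5.26% of all genes. In A159V 33 entered with 0 higher and 2 lower (P4ha2, a prolyl hydroxylase subunit, 273 and 125 CPM, and Plod1, a lysyl hydroxylase, 114 and 55.6 CPM), against 2.79% and 4.7% of all genes. The median log2 ratio of those that entered lay between -0.15 and 0.18 in the 5 comparisons.

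Immune cells are not a known source of most collagens, so their collagen UMIs were set beside the levels in the other cells of the same droplet library. Thinned to 1500 UMIs per cell, 12.4% (11.4% to 13.5%), 66.4% (64.8% to 67.9%), 9.74% (8.75% to 10.8%) and 16.2% (15.1% to 17.2%) of immune cells held a collagen UMI in the 4 libraries. In tumor-like cells of the 3 libraries with enough of them for ratios the share was 63.9%, 41.5% and 47.4%, in WT anti-PD1 it was 71.4% of 14 tumor-like cells (41.9% to 91.6%), and it was 100% in all fibroblast-like profiles. The shares before thinning were 25.8%, 91.4%, 16.5% and 28.2%, at median depths of 3045, 3057, 2058 and 2664.5 UMIs, and thinning left out 870, 963, 1381 and 1278 cells that were shallower. WT anti-PD1, the library with most fibroblast-like cells, was the highest. Its immune cells carried 3.31 collagen UMIs per cell on average, against 0.342, 0.189 and 0.356 in the others.

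The immune level of each gene was set against its non-immune level in the same library, and 16, 23, 6 and 14 of the 44 collagens had the 30 immune UMIs asked for. Summed collagen CPM in immune cells was 3.20%, 0.959%, 4.74% and 5.42% of that of non-immune cells, and the median over genes with at least 30 immune UMIs was 4.56%, 1.16%, 4.11% and 5.18%. Dcn, a fibroblast gene outside the collagens, gave 1.498%, 0.704%, 2.70% and 3.08%. Lum, Dpt, Clec3b and Mfap5, also fibroblast genes, ranged from 0.521% to 3.20%, 0.941% to 1.16%, 2.56% to 6.16% and 3.46% to 5.14%. Some of these rest on few immune UMIs (2 for Dpt in WT IgG). The tumor genes Prl2c2 and Prl2c3 gave 1.44% and 3.22% in WT IgG. They gave 5.29% and 4.40% in WT anti-PD1, on 9 and 6 immune UMIs. In A159V they gave 1.85% and 2.49% with IgG and 1.20% and 2.24% with anti-PD1. Rhox5, a tumor gene, gave 2.50%, 3.49% and 2.88%. In WT anti-PD1, with its 18 tumor-like cells, Rhox5 gave 10.2% on 16 immune UMIs. Krt8, also a tumor marker, held 0 immune UMIs in each library. Krt18 held 2 or 3 immune UMIs per library, and gave 61.3% in WT IgG and 103% and 213% in the A159V libraries. Whether these UMIs came from RNA outside the cells was not tested. In WT anti-PD1 the sum of Col1a1, Col1a2 and Col3a1 was present in every immune class, from 350 CPM in dendritic-like cells to 1077 in neutrophil-like cells, and per cell from 1.81 UMIs in neutrophil-like to 3.08 in macrophage-like cells. The class with the highest CPM was the one with the shallowest profiles (median 1522 UMIs). Neutrophil-like cells also had the highest value in the A159V libraries, with 79.8 CPM (44.7 to 132) and 175 CPM (133 to 227), and the first of these intervals overlaps those of other classes.

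Among the collagens with at least 30 immune UMIs in a library, a few did not follow this ratio. A gene was named when it had at least 30 immune UMIs in a library and its immune percentage exceeded 5 times the median there. Col9a3, a cartilage collagen, reached 148% of the non-immune level in WT IgG (2.33 against 1.57 CPM), 169% in WT anti-PD1 and 226% in A159V anti-PD1. Col20a1 reached 141% in WT IgG, 35.8% in WT anti-PD1 and 263% in A159V anti-PD1. Both were under 5 CPM wherever they were named in immune cells. Col9a3 overlaps Tcfl5 on the other strand and Col20a1 overlaps BX649560.1 on the same strand, and whether their UMIs belong to those genes was not tested. Col23a1 was named in both WT libraries, Col15a1 in WT IgG, and Col8a2 and Col11a2 in WT anti-PD1. In A159V IgG 0 genes were named, but only 6 had 30 UMIs. Genes with fewer immune UMIs also had high percentages there, such as Col9a3 (240% on 24 UMIs) and Col20a1 (167% on 15). The lack of named genes in A159V IgG is therefore not a difference between libraries in these genes.

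Col8a2 and Col15a1 are given by immune class. Over the 4 libraries, 65 of the Col8a2 UMIs of immune cells (75.6%) were in NK-like cells, at 9.31 CPM (7.18 to 11.9), against 1.19 in T-like and 0.107 in macrophage-like cells, and 54 NK-like cells of 1507 held them. Of the 65 UMIs, 39 came from WT anti-PD1, where NK-like cells stood at 21.1 CPM (15.01 to 28.8), against 2.61 (0.538 to 7.63), 5.16 (2.67 to 9.02) and 6.61 (3.30 to 11.8) in the other libraries. Without WT anti-PD1, an alternative added after seeing the data, Col8a2 stood at 5.06 CPM in NK-like (3.31 to 7.42) and 0.701 in T-like cells (0.257 to 1.53). The fibrillar chains Col1a1, Col1a2 and Col3a1 summed to 601 CPM in NK-like and 609 in T-like cells of WT anti-PD1. Col15a1 stood at 22.4 CPM in neutrophil-like cells (15.7 to 31.0), spread over 34 cells, against 3.74 in macrophage-like and 2.60 in T-like cells. Of its 36 UMIs there, 33 came from WT anti-PD1, at 35.0 CPM, and the other libraries gave 1, 0 and 2. Without WT anti-PD1, Col15a1 stood at 4.51 CPM in neutrophil-like (0.930 to 13.2) and 2.696 in macrophage-like cells (2.12 to 3.37), and these intervals overlap. The fibrillar chains were also highest in neutrophil-like cells of WT anti-PD1, at 1077 CPM against 645 in macrophage-like cells. Col9a3 and Col20a1 differed less between classes, with 69.5% and 65.2% of their immune UMIs in macrophage-like cells, the largest class.

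**Figure D4:**
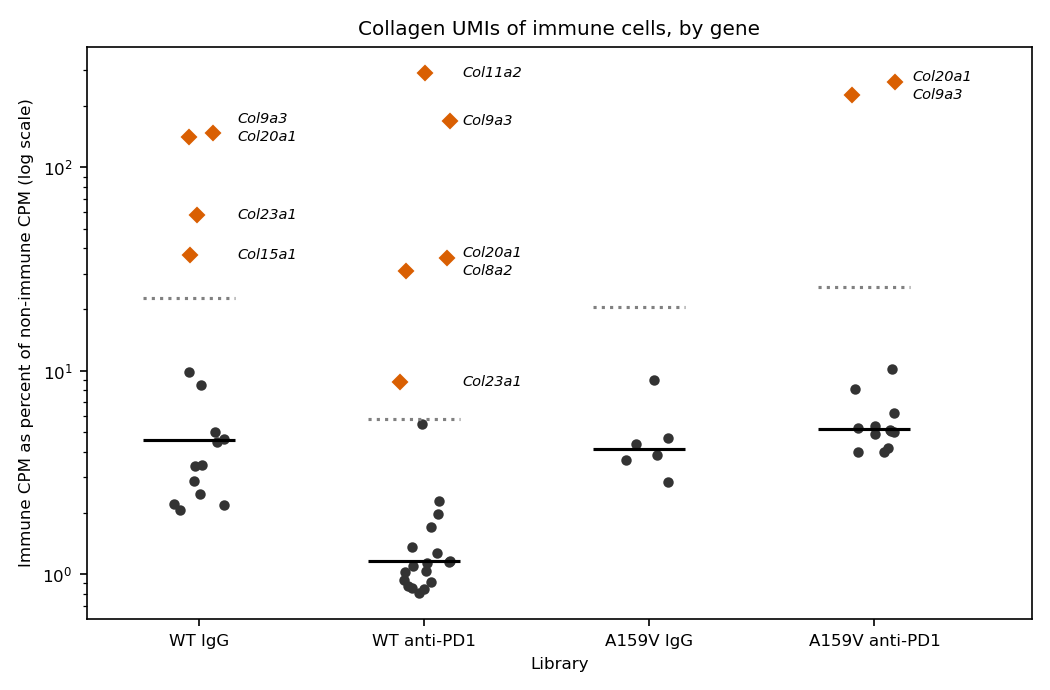
CPM of each collagen gene in immune cells as a percentage of its CPM in non-immune cells of the same library (log axis), for genes with at least 30 immune UMIs, with 1 column of points per library. Solid lines are medians, dotted lines are 5 times the median, and orange diamonds are the named genes. Most points lie under the dotted line of their library, and the named genes lie above it.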

How the data were processed

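Single-cell suspensions of collagenase-digested tumors were sequenced as 3′ libraries, and the authors deposited 1 table of raw UMI counts per gene and cell barcode for each library, made with Cell Ranger (5.0.1 in the submitters' processing notes, 7.2.0 in the file header) on mm10 with intronic reads included. The ambient RNA and doublet steps of the study came after these counts. Here barcodes with more than 500 genes were kept. Per library, simulated-doublet scores then removed 0.8% of these barcodes for each 1000 of them. This left 6867, 6466, 7603 and 8248 cells of 7802, 7430, 8685 and 9311. Library totals were 93030164, 54402632, 113779013 and 125227747 UMIs. Cells were clustered with scanpy 1.11.5 and leidenalg 0.10.2 (2000 variable genes without collagens and their processing genes, 20 components, 20 neighbors, resolution 1) and the 22 clusters were named by marker lists. A name needed 3 markers detected, a condition set after a first result was seen. Counts were summed per class and library as CPM, ratios were taken on log2(CPM + 1) with at least 50 cells on each side, and counting intervals (95%, scipy 1.17.1) cover sampling only. A count of 0 was read as up to 3 counts. No test was run because each group was 1 library. Collagen genes, lists and the rule for named genes (collagens at 50 CPM or more in a non-immune class, those past 2-fold in a comparison, and those over 5 times the median immune percentage) were chosen with earlier results of these data known. Promoters came from RefSeq windows of GRCm38.p6.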

Additional observations from a re-analysis of the deposited data

Results flagged for a closer look

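Barcodes with 500 genes or fewer, which entered no comparison, also held collagen UMIs, above the level that a count of 0 allows (6.41 to 8.89 CPM). Their summed collagen was 631 CPM (554 to 716) and 6212 CPM (5988 to 6442) in the IgG and anti-PD1 libraries of WT, and 417 CPM (354 to 487) and 1088 CPM (979 to 1205) in those of A159V. The order of the libraries was that found in immune cells. The source of these UMIs was not tested.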

How the results depend on the processing

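No paired analysis was possible because each group has 1 library. Of 28 named gene ratios, 26 kept their direction under every alternative gene minimum per cell, mitochondrial limit, resolution, marker-based choice of cells, treatment of doublets and stray markers, scaling and pseudocount, and 15 stayed past 2-fold in all of these; Col4a5 and Col8a2 in fibroblast-like cells did not keep it. Restricting cells to single clusters, or leaving 1 out, is not part of these counts and is given last. The 18 tumor-like cells of WT anti-PD1 were too few for ratios. Values given are log2 ratios of summed collagen unless said otherwise, and causes were not tested. With cells chosen by markers, tumor-like cells gave -1.07 for genotype and 0.24 for antibody. Fibroblast-like cells gave 0.64 (genotype), 1.35 (WT antibody) and 0.50 (A159V antibody), with Col4a5 at -1.14 and Col8a2 at 0.019. For genotype 2 genes were past 2-fold, against 2.31% higher and 4.85% lower of all 9605 genes. For the WT antibody 20 genes were, against 7.36% and 13.1% of all 9723 genes. With doublets kept, fibroblast-like cells gave -0.22 (2 genes), 0.59 and 0.25 (1 gene). Tumor-like cells without stray markers gave -0.99 and 0.23, and median-of-ratios scaling -1.36 and 0.12 in tumor-like and -0.059 and 0.41 (A159V antibody) in fibroblast-like cells. Leaving collagen out of the total gave 0.60 and 0.42 for the WT and A159V antibody. A pseudocount of 10 CPM gave 6 genes and -1.41 in tumor-like cells, and a minimum of 50 CPM also 6 genes. Both gave 0 genes for the fibroblast-like genotype and 1 for the A159V antibody comparison. Shares over all genes were not taken with doublets kept, with this pseudocount or with this minimum.

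Immune collagen as a percentage of non-immune was 2.86%, 0.876%, 4.34% and 4.81% with more than 1000 genes, where 64.3% of WT anti-PD1 immune cells held a collagen UMI. In WT anti-PD1 it was 1.09% with doublets, 0.918% by markers, 0.918% under the mitochondrial limit and 0.881% without collagen in the total, and in A159V anti-PD1 4.78% with doublets and 5.14% by markers. Shares of immune cells with a collagen UMI were 9.73%, 57.5%, 7.05% and 12.4% at 1000 UMIs and 25.8%, 91.4%, 16.5% and 28.2% unthinned.

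Alternatives added after seeing the data count genes by their level in the cells kept. The shares over all genes for the tumor-like counts are given in the Results. Without cluster 11, tumor-like cells gave -0.48 (7 genes) and 0.24, with Col1a1 at 0.094. Cluster 0 gave -0.29 (4 genes) and -0.018, with Col1a1 at 0.60. Cluster 2 gave -0.10 (5 genes) and 0.25, with Col18a1 at 0.17. Cluster 11 gave -0.30 (2 genes) and -0.62 (7 genes), with Col4a6 at 0.24. Fibroblast-like cluster 10 gave 0.16, 0.81 and 0.36, with Col8a2 at 0.30, and cluster 16 had too few cells. In the A159V antibody comparison of cluster 10, 4 genes were past 2-fold, against 3.05% higher and 4.28% lower of all 9221 genes.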
